A study of Mus musculus with 4 samples.

Results

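Reln, Trp73, Calb2, Lhx1, Lhx5, Dab1, Vldlr and Lrp8 were followed as genes of Cajal-Retzius cells and of reelin signalling in the fetal mouse brain. All 8 listed genes were found among the 19938 genes of the array, each with a single probe set annotated with that symbol alone. Whole brains were taken at embryonic day 16 from C57BL/6J fetuses, an inbred laboratory strain. The mothers had received ethanol at 2.5 g per kg in saline, or saline alone, on gestational days 14 and 16, and both groups were of the same strain. Each Affymetrix whole-transcript array read pooled RNA of 3 mice, and there were 2 ethanol arrays and 2 control arrays from 12 mice. The sex of the fetuses is labelled unknown, and neither the litters in each pool nor the hours from the last injection to collection are given in the sources used here. The comparison asks whether these transcripts differ in the fetal brain after acute ethanol.

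Cajal-Retzius cells are early-born neurons of the outermost layer of the developing cortex, and many arise at the cortical hem. They secrete reelin, a large extracellular glycoprotein, which binds the lipoprotein receptors VLDLR and LRP8 (ApoER2) on migrating neurons. The receptors pass the signal to the adaptor DAB1, which is phosphorylated by FYN and SRC and then degraded, and the cascade directs where newborn neurons settle in the cortical layers. The members are not unique to these cells: calretinin (Calb2) also marks thalamic neurons and interneurons, Lhx1 and Lhx5 are active in the cerebellum, hypothalamus and hindbrain, and reelin is also made by cerebellar granule cells. In whole-brain RNA, fewer cells of a type and less RNA per cell cannot be told apart.

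Of the 8 members, 6 had entries in a promoter table from RefSeq (build GRCm38.p6), all but Calb2 and Lhx5. The 250 bases before the annotated start are shown for the ligand Reln, on which the cascade depends, and for both starts of Trp73, since that gene has a single value on the array for transcripts of either start. Capitals mark GC boxes, searched as GGGCGG or its complement CCGCCC.
Reln, chr5:22344706-22344955, minus strand: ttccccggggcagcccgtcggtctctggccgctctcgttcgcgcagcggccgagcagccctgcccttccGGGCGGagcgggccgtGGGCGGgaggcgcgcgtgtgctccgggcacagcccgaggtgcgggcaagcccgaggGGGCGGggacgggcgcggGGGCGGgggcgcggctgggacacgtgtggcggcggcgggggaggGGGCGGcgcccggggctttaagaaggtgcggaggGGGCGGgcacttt
Trp73 outer start, chr4:154139876-154140125, minus strand: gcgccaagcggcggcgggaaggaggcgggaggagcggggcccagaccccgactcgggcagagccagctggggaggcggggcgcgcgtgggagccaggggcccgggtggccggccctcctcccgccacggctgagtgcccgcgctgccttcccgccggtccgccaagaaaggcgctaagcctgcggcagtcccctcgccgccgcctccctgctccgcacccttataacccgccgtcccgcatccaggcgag
Trp73 inner start (inside the gene), chr4:154097174-154097423, minus strand: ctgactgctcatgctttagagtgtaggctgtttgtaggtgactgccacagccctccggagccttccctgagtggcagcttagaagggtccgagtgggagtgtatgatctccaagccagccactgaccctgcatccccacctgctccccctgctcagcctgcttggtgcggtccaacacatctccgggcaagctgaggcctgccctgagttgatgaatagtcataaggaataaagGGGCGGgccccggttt
The Reln window held 6 GC boxes and 37 CG dinucleotides in 80.0% G and C, and 97.8% of all 32851 windows of that length held fewer CG dinucleotides. A GC box was present in 32.7% of all windows. The windows of the 2 Trp73 starts differed from each other, with 77.2% G and C and 31 CG dinucleotides at the outer start against 58.4% and 6 at the inner one, where 1 GC box was found. The homeodomain core TAATTA, which LIM homeodomain proteins such as LHX1 and LHX5 can bind, was found in 1 of the 11 member windows (Vldlr) and in 4.8% of all windows. TATAAA (12.4% of all windows) and the T-box core GGTGTGA (3.3%) were found in none of the 11 on either strand. These matches describe letters only, and the array did not measure binding.

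None of the 8 members differed between ethanol and control pools beyond the spread between pools. Values are log2 brightness as deposited, and a difference is the mean of the ethanol arrays minus the mean of the control arrays. In limma, with Benjamini-Hochberg adjustment over all 19938 genes, the members' adjusted p ranged from 0.98 to 0.999. The smallest adjusted p of any gene was also 0.98, so that value does not set a gene apart from others. At an unadjusted p under 0.05 limma also took 0 of the 8, as did the ordinary test without shared variance. Over all genes limma called 0 at an adjusted p under 0.05 (0.00%) and 587 at an unadjusted p under 0.05 (2.94%). The ethanol and control values overlapped in all 8 members, while they lay apart in 31.4% of all genes. An exact permutation test of 2 against 2 arrays cannot give a two-sided p below 0.333. The differences ran from -0.039 to 0.15 with a median of 0.053, against a median of 0.0088 over all genes.

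**Figure D1:**
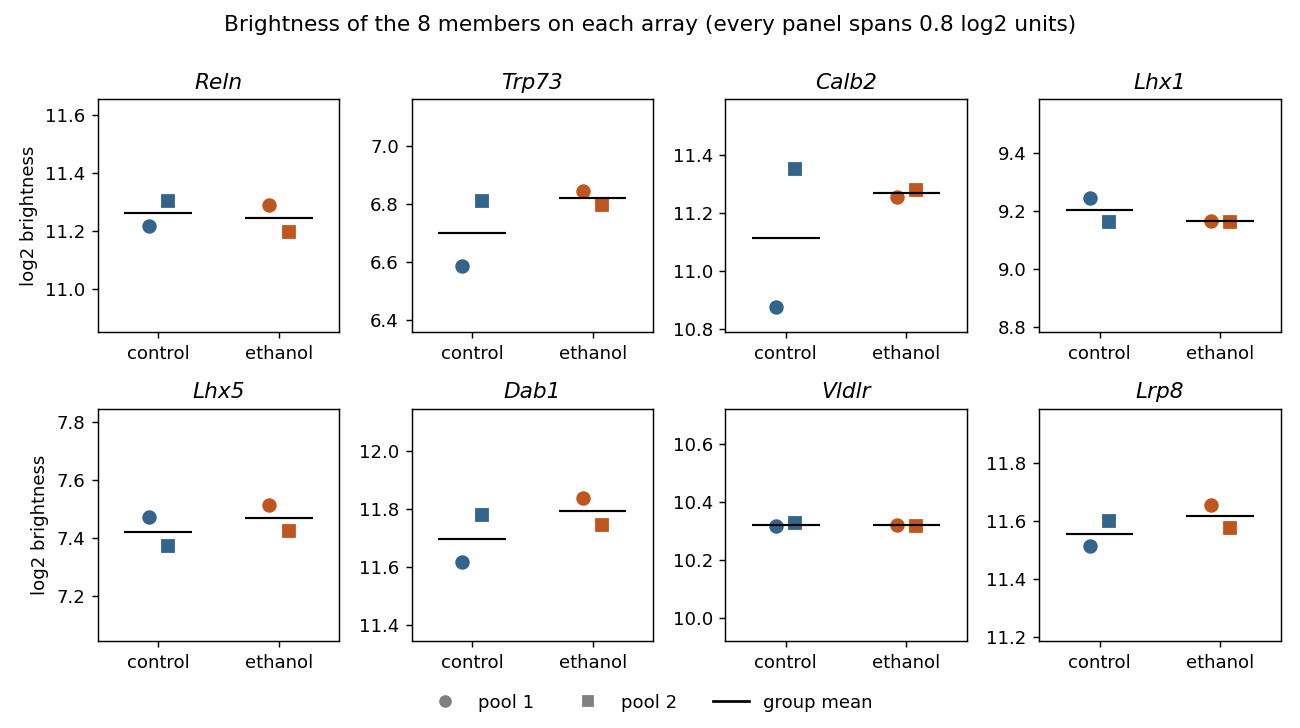
Log2 brightness (vertical axis) of each member on the 2 control and 2 ethanol arrays, with circles for pool 1, squares for pool 2 and bars for group means. The control values of Calb2 are 0.47 apart, those of Vldlr 0.0086 apart, and the groups overlap in every panel.

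Reln itself, the secreted ligand, was bright and nearly level over the arrays. It stood at 11.29 and 11.20 on the ethanol arrays and at 11.22 and 11.31 on the control arrays. The highest value came from control 2 and the lowest from ethanol 2, with the other pool of each group between them. The difference was -0.016 ± 0.075 (SE, 2 arrays per group), with a 95% interval of -0.20 to 0.17, or 0.869 to 1.13 times the control level. Its sign turned without control 2 (0.028) and without ethanol 2 (0.030), and after repeated quantile normalization (0.0025).

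The 2 reelin receptors differed in how much they varied but not in the outcome. Vldlr stood at 10.32 on both ethanol arrays and at 10.32 and 10.33 on the control arrays. Its within-group SD of 0.0045 was among the smallest measured, with 0.3% of all genes below it. The difference of Vldlr was -0.0026 ± 0.065 (SE, shared variance), with a 95% interval of -0.16 to 0.16.

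Lrp8, the receptor also called ApoER2, stood at 11.65 and 11.58 in ethanol and at 11.51 and 11.60 in control. Control 1 was the lowest array and ethanol 1 the highest, and ethanol 2 lay below control 2. The difference was 0.060 ± 0.074 (SE), with a 95% interval of -0.12 to 0.24. Without control 1 it was 0.017.

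Dab1, the intracellular adaptor that the receptors engage, showed the same order of arrays as Lrp8. It stood at 11.84 and 11.74 in ethanol and at 11.62 and 11.78 in control. The difference was 0.093 ± 0.085 (SE), with a 95% interval of -0.12 to 0.30, or 0.921 to 1.24 times the control level. Ethanol 1 exceeded control 1 by 0.22, while ethanol 2 stood below control 2 (-0.035). Without control 1 the difference was 0.013.

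Among the genes that mark Cajal-Retzius cells, Calb2, which encodes the calcium-binding protein calretinin, had the widest spread. It stood at 11.26 and 11.28 on the ethanol arrays and at 10.88 and 11.35 on the control arrays. Control 2 was the highest array and control 1 the lowest, so both ethanol pools lay between the controls. The difference was 0.15 ± 0.16 (SE), with a 95% interval of -0.23 to 0.54, or 0.852 to 1.45 times the control level. Its within-group SD was 0.24, and 96.7% of all genes had a smaller one. Without control 1 the difference was -0.083, and without control 2 it was 0.39. Each of these values rests on a single control array.

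Trp73 encodes the transcription factor p73, which marks Cajal-Retzius cells of the hem and is also made in ependymal and choroid plexus cells. It was the dimmest member, at 6.84 and 6.80 in ethanol and 6.59 and 6.81 in control. All 4 values lay above the lower quartile of their array (6.45 to 6.55) and below its median (8.01 to 8.04). The difference was 0.12 ± 0.094 (SE), with a 95% interval of -0.11 to 0.36. Without control 1 the difference was 0.0092, and without control 2 it was 0.235. One value per array covers transcripts of both starts, so their balance was not measured.

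The LIM homeodomain factors Lhx1 and Lhx5, which specify neuron types that include Cajal-Retzius cells, were not lowest in control 1, unlike Calb2 and Trp73. Lhx1 stood at 9.17 and 9.16 in ethanol and at 9.24 and 9.16 in control. Control 1 was its highest array and the other 3 lay within 0.0046 of each other. The difference was -0.039 ± 0.069 (SE), with a 95% interval of -0.21 to 0.13, and it came to 0.0027 without control 1. Lhx5 stood at 7.51 and 7.42 in ethanol and at 7.47 and 7.37 in control, below the median brightness of each array. Pool 1 was the higher one in both groups. The difference was 0.046 ± 0.076 (SE), with a 95% interval of -0.14 to 0.23, and it came to -0.0037 without control 2.

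**Figure D2:**
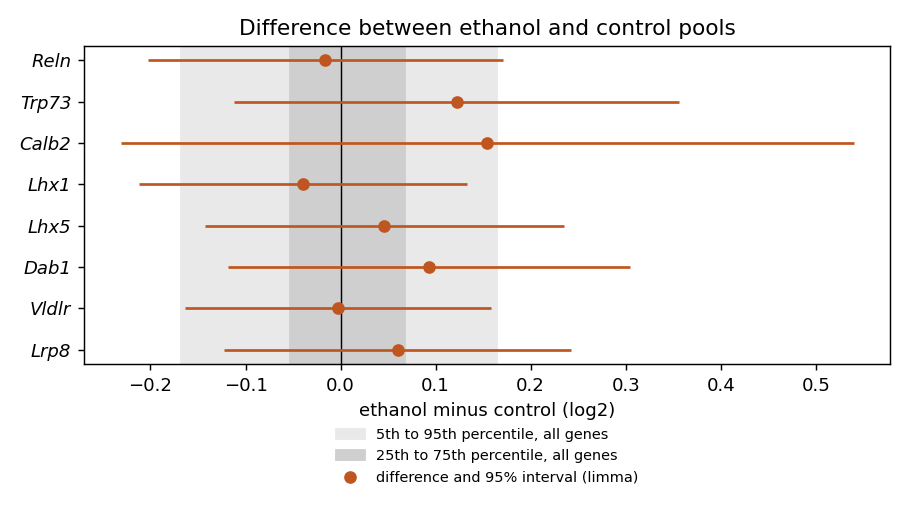
Difference between ethanol and control arrays (log2, horizontal axis) for each member, with points for the difference and lines for limma's 95% interval. Shaded bands span the 25th to 75th percentile (-0.053 to 0.068) and the 5th to 95th percentile (-0.17 to 0.16) of the differences of all genes. All 8 intervals include 0 and all 8 points lie between the 5th and the 95th percentile.

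The intervals show which differences the arrays leave possible. The widest upper bound was that of Calb2, at 1.45 times the control level. For Reln, Lhx1 and Vldlr the intervals stayed between 0.864 and 1.13 times the control level. A p that misses the threshold does not show that the groups are alike. The bounds are not limits of detection, and with 2 arrays per group 0 of all 19938 genes passed the adjusted test.

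The 2 control pools differed from each other in several members. Control 1 was the lowest array for Trp73, Calb2, Dab1, Lrp8 and Vldlr, that is for 5 of 8 members, while it was the lowest for 32.5% of all genes. For Vldlr it was lowest by a margin of 0.0003. Control 1 minus control 2 was -0.47 for Calb2, -0.23 for Trp73, -0.16 for Dab1, -0.089 for Reln and -0.087 for Lrp8. It was 0.084 for Lhx1 and 0.10 for Lhx5, so the LIM factors went the other way. The SD of that difference over all genes was 0.217, which Calb2 and Trp73 exceeded in size and the other 6 members did not. Ethanol 1 exceeded ethanol 2 in 7 of the 8, by 0.0028 to 0.095, and Calb2 was the exception at -0.026.

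Control 1 was also the pool with the highest signal of tissue from outside the brain. It was the highest array for 16 of 16 skeletal muscle genes, whose median level was 9.74 there, 8.30 in ethanol 2, 7.45 in ethanol 1 and 7.46 in control 2. Actc1, a muscle actin, was the brightest of these and stood at 12.56 in control 1 and 8.15 in control 2. Control 1 was likewise the highest array for 15 of 17 meningeal and pericyte genes, with a median of 9.09 there and of 8.51 to 8.60 on the other arrays. Of the 13 neuron markers, all of which were above the median brightness on every array, 7 were lowest in control 1. The part of these tissues in the values of Calb2, Trp73, Dab1 and Lrp8 was not tested. Between ethanol 1 and control 2, both low in muscle genes, the differences were 0.032 for Trp73, -0.095 for Calb2, 0.061 for Dab1, 0.056 for Lrp8 and -0.014 for Reln. In the same pair Lhx5 was at 0.14, the largest of the 8 there, Lhx1 at 0.0046 and Vldlr at -0.0055.

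**Figure D3:**
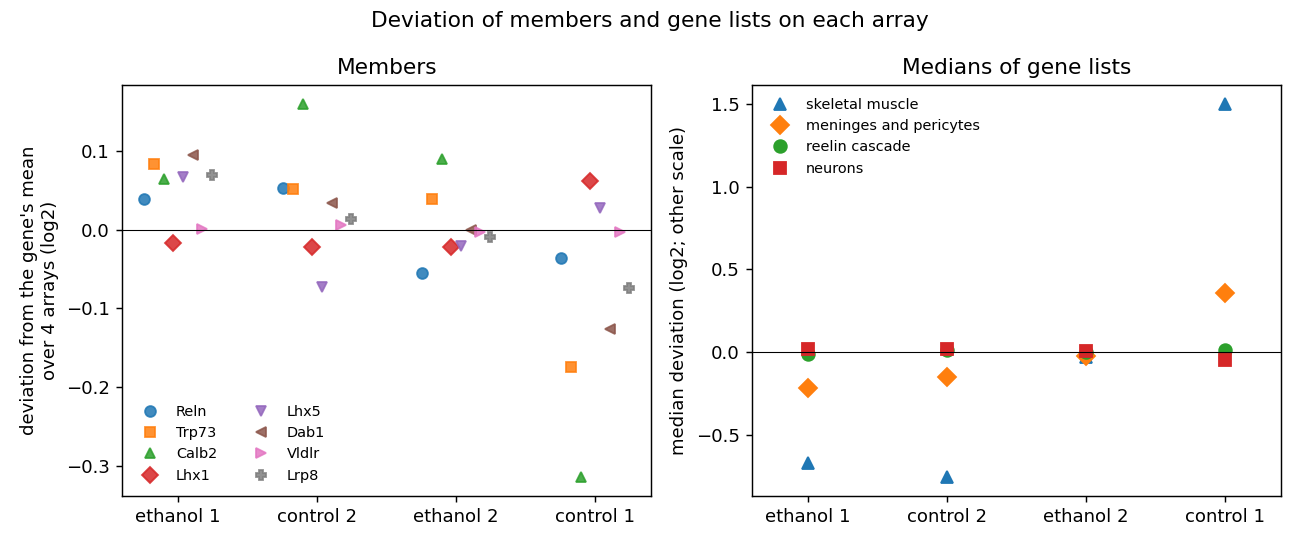
Deviation of each member from its own mean over the 4 arrays (left, log2) and the median deviation of 4 gene lists (right, log2, on a wider scale), with the arrays along the horizontal axis. On control 1 Calb2 and Trp73 lie lowest on the left, while the skeletal muscle median stands at 1.5 and the meningeal median at 0.36 on the right.

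A list of 33 other genes of the reelin cascade ran from the kinases to the cytoskeleton and adhesion targets. It also held genes that act beside the cascade, such as Cdk5, and Dcx, which is counted among the neuron markers too. The 33 genes had 11 differences above 0 and 22 below, with a median of -0.016. None passed the adjusted test and none had an unadjusted p under 0.05. Ethanol values lay below both controls in 7 of the 33 and above in 2, or 21.2% and 6.06%, against 14.0% and 17.4% of all genes in those directions. The median remained below 0 without any single array, at -0.036 to -0.023. It came to -0.002 after repeated quantile normalization and to -0.011 after median centring.

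FYN, the kinase that phosphorylates DAB1, had both ethanol pools below both control pools. Fyn stood at 11.27 and 11.47 in ethanol and at 11.53 and 11.64 in control. The difference was -0.21 ± 0.093 (SE; limma, adjusted p = 0.98), and it ranged from -0.31 without ethanol 2 to -0.12 without ethanol 1. Src, which encodes the related kinase, was at -0.080 ± 0.079 with overlapping groups.

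The adaptors and exchange factor that act after DAB1 phosphorylation did not pass the test. Crk was at -0.016 ± 0.090 and Crkl at 0.096 ± 0.071, and Crkl had both ethanol values above both controls. Rapgef1, which encodes a guanine nucleotide exchange factor for RAP1, was at 0.0053 ± 0.079, and its other probe set was at 0.11. For the ubiquitin ligase parts that remove phosphorylated DAB1, Cul5 was at -0.030 ± 0.071, Rnf7 at -0.051 ± 0.10 and Socs7, the subunit that recognises it, at 0.060 ± 0.085.

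Genes of nuclear movement and adhesion in migrating neurons likewise did not pass the test. Pafah1b1, which encodes the dynein regulator LIS1, was at -0.10 ± 0.10, and its partner Ndel1 at 0.028 ± 0.078. Cdk5, the neuronal kinase that acts in parallel with reelin, was at -0.012 ± 0.081 and its activator Cdk5r1 at 0.013 ± 0.078. The adhesion genes Cdh2 (N-cadherin, -0.072 ± 0.068) and Itga3 (integrin alpha 3, -0.12 ± 0.080) had both ethanol values below both controls. Itgb1, an integrin gene named after its values were seen, had the largest difference of the 33, at -0.25 ± 0.19 with overlapping groups.

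Genes that cut reelin, share its receptors or control receptor turnover had 3 of 14 differences above 0 and 11 below, with a median of -0.090. Of the 19 listed genes 14 were analysed here, each with a probe set of its own. Ethanol values lay below both controls in 5 (35.7%) and above in 1 (7.14%), against 14.0% and 17.4% of all genes. The list median was -0.14 without ethanol 2, -0.029 without ethanol 1 and -0.037 without control 1.

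Apoe, which encodes apolipoprotein E, another ligand of the same receptors, was the only one of these 14 with an unadjusted p under 0.05. It stood at 10.63 and 10.57 in ethanol and at 10.78 and 10.84 in control, without overlap. The difference was -0.21 ± 0.070 (SE), with a 95% interval of -0.38 to -0.037 and, in limma, an unadjusted p = 0.0254 and adjusted p = 0.98. It ranged from -0.24 to -0.18 with an array left out. Such a fit leaves a group with a single array, so only the difference is given.

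The other named genes of this list differed less. Adamts3, whose protease cleaves and inactivates reelin, was at -0.11 ± 0.078, and 14 of its 15 further probe sets were also below 0 (median -0.080). These probe sets read the same 4 pools and are not repeats of the comparison. Furin, a proprotein convertase, was at -0.11 ± 0.090, Mylip, the ligase that degrades the receptors, at -0.046 ± 0.086, and Snx17, a sorting protein of the receptors, at -0.13 ± 0.077. Over both lists 1 of 47 genes, or 2.1%, had an unadjusted p under 0.05, near the 2.94% of all genes.

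**Figure D4:**
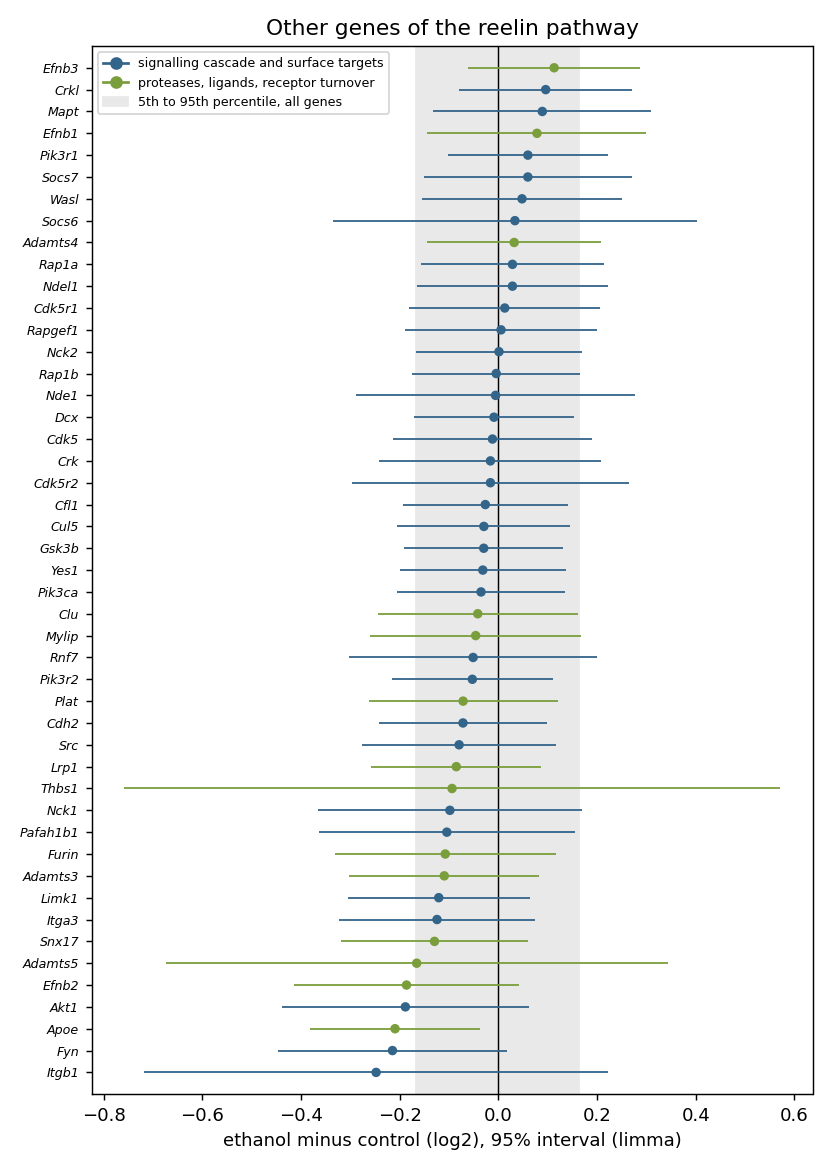
Difference between ethanol and control arrays (log2, horizontal axis) for the 47 genes of both reelin pathway lists. Lines give limma's 95% interval, and a band gives the 5th to 95th percentile of all genes. Of the 47, 33 lie below 0, and the interval of Apoe is the only one that does not include 0.

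Further genes tied to Cajal-Retzius cells gave no common direction. Of 16 with a probe set, 7 were above 0 and 9 below, with a median of -0.029 that came to 0.0047 without control 1. The transcription factor genes Ebf2 and Ebf3 were at -0.15 ± 0.16 and -0.092 ± 0.10 and were highest in control 1. Ndnf, a secreted factor of layer 1 cells, was at 0.0091 ± 0.066, and the calcium channel subunit gene Cacna2d2 at 0.032 ± 0.073. The basic helix-loop-helix gene Nhlh2 was at -0.063 ± 0.070, with both ethanol values below both controls. Tbr1, a T-box factor that activates Reln, stood at 11.17 and 11.33 in ethanol and at 11.20 and 11.31 in control, which gave a difference near 0 (0.0005 ± 0.087).

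A chemokine and its receptor keep Cajal-Retzius cells at the brain surface. Cxcr4, the receptor on the cells, was at -0.025 ± 0.081. Cxcl12, its ligand from the meninges, stood at 8.50 and 8.65 in ethanol and at 9.09 and 8.80 in control, with both ethanol pools below both controls. The difference of Cxcl12 was -0.37 ± 0.12 (SE), with a 95% interval of -0.66 to -0.086 and, in limma, an unadjusted p = 0.0197 and adjusted p = 0.98. It was -0.23 without control 1 and -0.52 without control 2, each against a single control array. The meningeal and pericyte list had 16 of 17 genes below 0, with a median of -0.21 that came to 0.071 without control 1; its part in the value of Cxcl12 was not tested.

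Lists of other cells that could hold the members were set beside them. The cortical hem list had 6 of 13 genes above 0 (median -0.038), and its brightest gene, Ttr, which is also the main choroid plexus transcript, was at -0.14 ± 0.089. The hem median came to 0.044 without control 1 and to -0.15 among the brighter genes alone. Wnt3a and Wnt8b of this list lay below the lower quartile of every array. Of 14 interneuron genes 9 were above 0 (median 0.045), and the brightest, Sst, which encodes somatostatin, stood at 12.14 and 12.00 in ethanol and at 11.52 and 11.77 in control. The difference of Sst was 0.42 ± 0.11 (limma, unadjusted p = 0.00844, adjusted p = 0.98), from 0.30 without control 1 to 0.55 without control 2. Cerebellar and hindbrain genes had 12 of 15 above 0 (median 0.099), with Zic2, a zinc finger factor, at 0.11 ± 0.072. Hypothalamic and thalamic genes had 11 of 11 above 0 (median 0.12), with Tcf7l2, a thalamic WNT effector, at 0.13 ± 0.084. Of the 7 genes of olfactory mitral cells 4 were above 0 (median 0.00050), and Tbr1 was the brightest. Over all genes 54.2% were above 0. Ethanol values lay above both controls in 72.7% of the hypothalamic and thalamic, 53.3% of the cerebellar and 42.9% of the interneuron genes. The share was 28.6% for mitral cells and 23.1% for the hem, against 17.4% of all genes. Ethanol values lay below both controls in 0.00%, 6.67%, 7.14%, 0.00% and 15.4% of these lists, against 14.0%. In limma 0 genes of these lists had an adjusted p under 0.05, as was so for all genes (0.00%). At an unadjusted p under 0.05 there were 7 of 60, or 11.7%, with 5 higher and 2 lower in ethanol, against 2.94% of all genes.

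The remaining lists served as checks of the tissue. Stmn2, a neuronal microtubule regulator and the brightest of 13 neuron markers, was at 0.0084 ± 0.074, and 8 of the 13 were above 0 (median 0.032). Tubb3, a neuronal tubulin gene named after its values were seen, was the only one of the 13 with an unadjusted p under 0.05, at -0.38 ± 0.11 with both ethanol pools below both controls (limma, unadjusted p = 0.0157, adjusted p = 0.98). Igf2, the brightest gene of the meningeal and pericyte list, was at -0.24 ± 0.30. Ptgds, named after its values were seen, was the only one of those 17 genes with an unadjusted p under 0.05. It stood at 11.13 and 10.89 in ethanol and at 11.45 and 11.42 in control. The difference of Ptgds was -0.42 ± 0.0975 (limma, unadjusted p = 0.00573, adjusted p = 0.98). Over all genes 2.94% had an unadjusted p under 0.05 in limma. Ethanol values lay below both controls in 23.1% of the neuron markers and above in 23.1%. In the meningeal and pericyte list these shares were 23.5% and 0.00%, against 14.0% and 17.4% of all genes. Actc1 was at -0.73 ± 1.60, with 16 of 16 muscle genes below 0 (median -0.64) and a median of 0.40 without control 1. Alas2, an enzyme of haem synthesis and the brightest of 5 erythroid genes with a probe set, was at 0.071 ± 0.12 (list median 0.022, 3 of 5 above 0).

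The genes with a profile nearest to that of Reln were 3000002C10Rik, Kbtbd13, Cd24a, 1700086O06Rik and Castor2. Likeness was the root mean square distance between values centred on each gene's mean over the 4 arrays, and it was 0.0021 to 0.0050 for these 5. Cd24a, which encodes a surface glycoprotein of young neurons, stood at 13.76 and 13.67 in ethanol and at 13.68 and 13.78 in control. Reln deviated from its own mean by 0.046, and 3653 of 19937 other genes, or 18.3%, lay within that distance of it. A likeness of that size over 4 arrays was thus shared by many genes. Among the members Lrp8 was nearest to Reln (0.039) and Calb2 farthest (0.17).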

How the data were processed

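RNA of fetal brains was labelled as single-stranded cDNA with biotin, per the labels' protocols. The deposited values are log2 brightness values, 1 per probe set and array, and the log base was taken from their range. Partek 6.6 appears in the submitters' processing notes, and the sources used here give no background correction, normalization or genome build.

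Of 35556 probe sets, 21789 have 1 gene symbol, 1621 several and 12146 none. Symbols were updated by Entrez identifier (21698 matched, 91 kept), and the brightest probe set stood for the 999 genes with several. Differences were tested with limma 3.58.1 (R 4.3.3, lmFit and eBayes without trend, two-sided, adjusted p under 0.05) over 19938 genes. Residual degrees of freedom were 2, or 5.65 with moderation, and the script was tested on simulated data. Intervals are 95% intervals of that fit. Nothing says the pools are independent litters, so p-values set differences against the spread between these pools, with variance shared over genes. The number of arrays limits the precision. The table has 0 columns of other samples.

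The members and lists were chosen with earlier results of these data known. Named were the 8 members, set genes of the reelin and Cajal-Retzius lists, the brightest gene of each further list and the 5 genes nearest to Reln. Alternatives were other units of testing and scalings, brighter genes alone, a replicate block, other variance models and each array left out.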

Additional observations from a re-analysis of the deposited data

How the results depend on the processing

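The members past the adjusted threshold remained 0 of 8 under every alternative run, and 0 of 6 among the brighter genes. With an array left out the count stayed at 0, and the members with groups apart ranged from 1 to 6 of 8. They were 1 without ethanol 1, 4 without ethanol 2, 5 without control 1 and 6 without control 2, where 58.4%, 74.4%, 58.9% and 71.0% of all genes were apart. Over all genes 0 to 4 were called with an array left out, 4 of them without control 2. The direction of 5 members, among them Calb2 with the largest difference of the 8, depended on the setting. Repeated quantile normalization gave 0.0025 for Reln and 0.021 for Vldlr, and median centring gave 0.0028 for Vldlr. With an array left out Reln ranged from -0.063 to 0.030, Calb2 from -0.083 to 0.39, Lhx1 from -0.081 to 0.0027, Lhx5 from -0.0037 to 0.096 and Vldlr from -0.0069 to 0.0017. Ethanol 1 minus control 2, chosen after the data were seen, gave -0.095 for Calb2 and 0.0046 for Lhx1.

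The labels do not say that replicate numbers pair the pools, and same-numbered deviations correlated at -0.484. With a replicate block limma called 0 genes and 0 members, with 267 genes at an unadjusted p under 0.05. With crossed pairing, chosen after the data were seen, 0 genes were called and 1463 had an unadjusted p under 0.05.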
